A study of Rattus norvegicus with 94 samples.

Results

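The 9 genes described here encode the apolipoproteins Apoa4, Apoa1, Apoa2, Apob, Apoc1, Apoc3 and Apoe and the lipases Lipc and Lpl, measured in rat liver after a single dose of clofibrate, DEHP or VPA. They are 9 of the 4737 gene symbols on the array. Every probe set (a group of short oligonucleotides that reports 1 transcript) whose platform symbol was 1 of these 9 names was taken, which gave 19 of 8799 probe sets, 15 for apolipoproteins and 4 for lipases. Apob had 5, Apoc3 and Lpl 3 each, Apoa1 and Apoe 2 each, and Apoa4, Apoa2, Apoc1 and Lipc 1 each. Where a gene had several, the probe set of highest mean signal is described first.

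Treated animals received 1000 mg/kg clofibrate (a lipid-lowering fibrate drug) in 0.9% saline, 20 g/kg DEHP (di(2-ethylhexyl) phthalate, a plasticizer) or 2000 mg/kg sodium valproate (VPA, an anticonvulsant), the last 2 in distilled water, and their livers were taken 4, 24, 48 or 168 h later. Vehicle animals, dosed with the liquid alone, had livers taken at 48 and 168 h, separately for each compound. All were male SD rats, and the labels give no age. Each of the 18 groups had 3 individual-animal arrays at 4 and 24 h and 5 otherwise, except 4 in VPA-treated livers at 48 and 168 h, and 1 further array of pooled RNA. The labels say no more of how the animals were kept or matched, so p-values measure the spread between these arrays.

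Apolipoproteins are the protein part of lipoproteins, the particles that carry triglyceride and cholesterol in blood. Apob forms the frame of the triglyceride-rich particles that liver and gut secrete, Apoa1 and Apoa2 are the main proteins of high-density lipoprotein, and Apoa4 is an exchangeable apolipoprotein of gut and, in rats, of liver. Apoc3 slows triglyceride clearance, Apoc1 also modulates lipoprotein clearance and lipid transfer, and Apoe is a ligand for lipoprotein receptors. Lipc (hepatic lipase) is made by hepatocytes and hydrolyses lipids of remnant and high-density particles, and Lpl (lipoprotein lipase) releases fatty acids from circulating triglyceride, mainly in muscle and fat. Fibrates are known to activate the nuclear receptor PPARA, which drives fatty acid oxidation in rodent liver.

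In the current rat annotation of RefSeq (GRCr8) Apoa1, Apoc3 and Apoa4 lie next to each other on chromosome 8, in that order, between Sik3 and Apoa5. Apoc1 and Apoe are neighbours on chromosome 1. Lipc lies elsewhere on chromosome 8, Apoa2 on chromosome 13, Lpl on chromosome 16 and Apob on chromosome 6. RefSeq promoter windows, from 250 bases before to 50 bases after a transcript start, were at hand for 4 of the 9 genes, as 7 windows. The pair shown here belongs to Apoa4, the gene of the largest falls under clofibrate and DEHP, and Lipc, the lipase whose fall had the smallest adjusted p. Capitals mark the nuclear receptor hexamer AGGTCA, searched on both strands.
Apoa4, chr8:55435529-55435828, plus strand: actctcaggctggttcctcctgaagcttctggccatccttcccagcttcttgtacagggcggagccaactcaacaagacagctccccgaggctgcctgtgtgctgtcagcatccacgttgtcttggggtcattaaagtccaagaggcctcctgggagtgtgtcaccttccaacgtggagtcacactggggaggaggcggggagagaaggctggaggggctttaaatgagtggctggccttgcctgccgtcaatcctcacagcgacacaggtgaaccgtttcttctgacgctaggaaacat
Lipc, chr8:80516236-80516535, minus strand: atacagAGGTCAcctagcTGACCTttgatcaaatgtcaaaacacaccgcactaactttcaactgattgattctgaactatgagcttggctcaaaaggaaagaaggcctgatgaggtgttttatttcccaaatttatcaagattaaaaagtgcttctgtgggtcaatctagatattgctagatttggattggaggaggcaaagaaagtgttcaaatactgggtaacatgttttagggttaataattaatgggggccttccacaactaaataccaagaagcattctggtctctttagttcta
The Lipc window held AGGTCA at bases -244 to -239 before the start and its reverse complement at bases -232 to -227. The Apoa4 window, 2 Apoc1 windows and 3 Apoe windows did not hold it. The hexamer occurred in 5415 of 33469 promoter windows of the same length (16.2%). The letters TATAAA, also searched on both strands, were in 14.2% of windows and in none of the 7 windows of the 4 genes. A match in letters is not a measured binding site.

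The arrays reported signals on a linear scale that the authors had scaled to a target of 1500. The median signal was 212 to 417 per array, 33.2 to 46.0% of probe sets reached 500, and no pair of arrays was identical. The mean log2 ratio of 3' to 5' signal of control transcripts, a measure of RNA and labelling quality, was 1.38 in the clofibrate set, 0.33 in the DEHP set and 0.34 in the VPA set. Signals of 4 individual arrays of the clofibrate set were deposited to 1 decimal: treated 24 h replicate 3, treated 48 h replicate 5, and vehicle 48 h replicates 4 and 5. In that order their log2 3' to 5' ratios were 2.74, 2.40, 2.57 and 2.49, the highest of the 76 individual arrays. At 48 h of clofibrate the group mean of this ratio was 1.26 in treated and 1.77 in vehicle livers. The compound sets were scanned on separate days, so level differences between sets cannot be told apart from scan batch. Hepatocyte markers were high in every group (Alb group means were 45454 to 150976). The gut markers had group means of 11 to 43 for Si, 45 to 235 for Fabp2, 286 to 740 for Muc2, 362 to 622 for Lct and 431 to 804 for Alpi. The adipose tissue markers had group means of 6 to 46 for Fabp4, 20 to 86 for Plin1, 340 to 1484 for Cfd, 407 to 1849 for Lipe and 4624 to 8128 for Lep.

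Most of the 9 genes were abundant liver transcripts by this measure. The mean signals of Apoe and Apoc3 stood at percentile 100 of all probe sets, Apoc1 at 99.8, Apoa2 at 99.5, Apoa1 at 99.1, Apob at 98, Lipc at 93.7 and Apoa4 at 93, and Lpl at 59.9. Percentiles of different probe sets also reflect how well each hybridises, so they do not rank the genes. Signals were floored at 150 and tested as log2 values with limma where a probe set averaged at least 500 in 1 group, which left 16 of the 19 members in each compound's fit. The Lpl probe set rc_AI237731_s_at was in no fit, with 28 of 76 arrays at the floor. Livers at 48 and 168 h were compared with vehicle livers of that time, and livers at 4 and 24 h with the average of the 48 and 168 h vehicle groups, so the early and late comparisons share vehicle arrays. With no vehicle livers at 4 or 24 h, differences due to sampling time alone cannot be told apart there from those of the compound. The same holds where treated livers at 4, 24 and 48 h are compared with each other. A probe set was called when its p, adjusted over all probe sets tested, was under 0.05.

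Every member call against vehicle was a fall, and most lay at 24 and 48 h. The calls per time are set beside the share of all tested probe sets called lower. Clofibrate lowered 4 of 16 member probe sets at 24 h (7.74% of all tested) and 7 at 48 h (12.7%). DEHP lowered 9 at 24 h (17.5%), 8 at 48 h (21.1%) and 1 at 168 h (1.49%). VPA lowered 3 at 4 h (6.79%), 11 at 24 h (15.6%) and 10 at 48 h (18.4%). No member passed in limma at 4 h of clofibrate (0 of 16 at an unadjusted p under 0.05, with 3.43% of all tested called in either direction) or at 4 h of DEHP (3 at an unadjusted p under 0.05, with 2.88% of all called). At 168 h no member passed under clofibrate (0 at an unadjusted p under 0.05) or VPA (6 at an unadjusted p under 0.05), in fits where 0% of all probe sets were called (78 and 326 at an unadjusted p under 0.05). Bulk liver RNA cannot tell fewer cells of a type from less RNA per cell.

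The median log2 difference of the 16 members, treated minus vehicle, was -0.52 at 24 h and -0.66 at 48 h of clofibrate, against -0.09 and -0.13 over all tested probe sets. Under DEHP the member medians were -0.53 and -0.42, against -0.06 and -0.11 for all, and under VPA they were -0.52 and -0.56, against 0.02 and -0.01. Among 236 other probe sets averaging 20000 or more, a threshold chosen after seeing the data, the VPA medians were -0.46 and -0.41. Of these 236, 140 were called lower at 24 h and 125 at 48 h of VPA. The counts called lower at these times were 97 and 81 under DEHP, and 32 and 53 under clofibrate. The VPA member medians thus lay closer to those of other bright probe sets than to those of all. By the probe set shown per gene, 2 of 9 genes were lower at 24 h and 3 at 48 h of clofibrate, 5 and 5 under DEHP, and 7 and 7 under VPA.

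**Figure D1:**
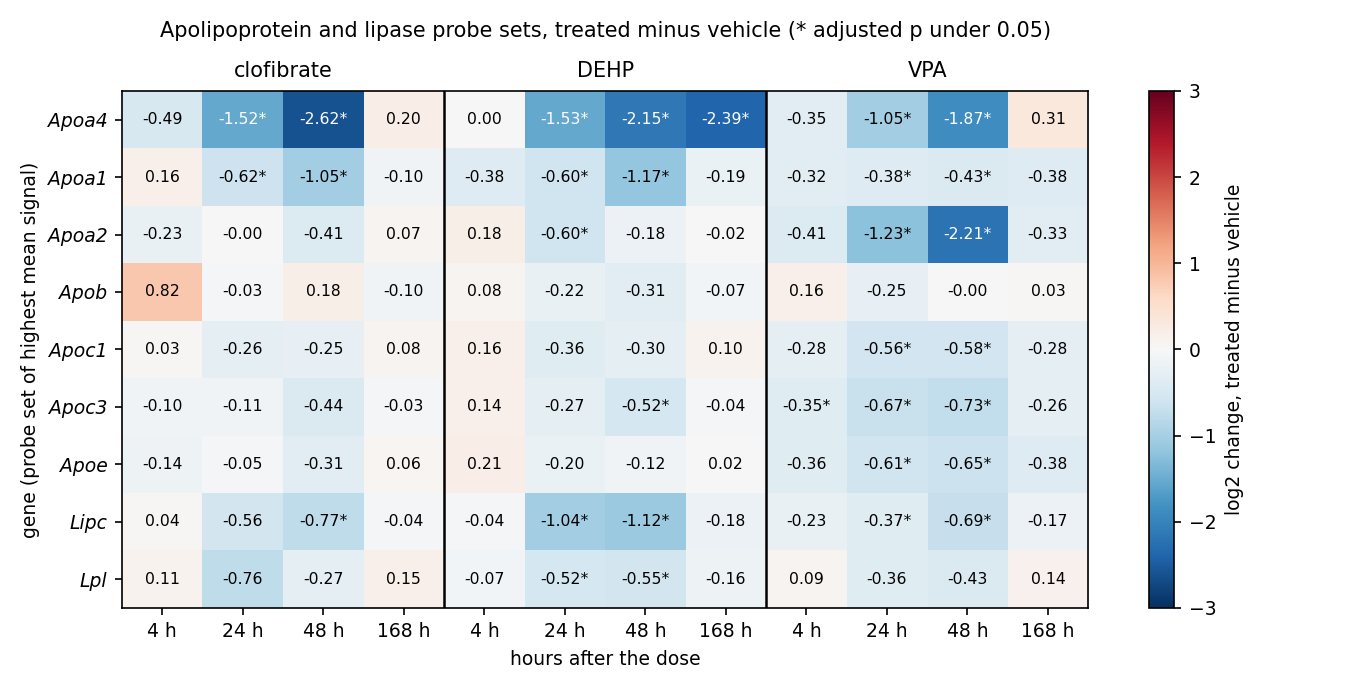
Log2 difference between treated and vehicle livers for each of the 9 genes (rows, probe set of highest mean signal) at 4, 24, 48 and 168 h of each compound (columns), with an asterisk where the adjusted p from limma was under 0.05. The falls of Apoa4 reach -2.62 under clofibrate and remain only under DEHP at 168 h (-2.39), and Apoa2 reaches -2.21 under VPA.

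Apoa4 fell under all 3 compounds, by the largest amounts of the 9 genes under clofibrate and DEHP, and only under DEHP did the fall extend to 168 h. In clofibrate-treated livers its signal was 14021, 8569 and 9204 at 4 h, 3823, 3366 and 10031 at 24 h, 2455, 1849, 2474, 2286 and 3727 at 48 h, and 14883, 20471, 18012, 15731 and 11717 at 168 h. Its clofibrate vehicle livers had 10482, 12917, 13987, 21531 and 20699 at 48 h and 18978, 14201, 11942, 17769 and 8706 at 168 h. All 5 treated livers at 48 h lay below all 5 vehicle livers, while the groups overlapped at 168 h. The mean was 2558 ± 700 in treated and 15923 ± 4916 in vehicle livers at 48 h (SD, n = 5 each), a log2 difference of -2.62 (SE 0.28, adjusted p 2.57e-07 in limma), or 6.15-fold lower. At 24 h the difference was -1.52 (SE 0.29, adjusted p 0.000826), and at 168 h it was 0.20 (SE 0.28, adjusted p 1).

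The third treated liver at 24 h of clofibrate, 1 of the arrays deposited to 1 decimal, stood apart at 10031. Without the 4 such arrays the Apoa4 differences were -1.86 at 24 h (adjusted p 3.75e-05 in limma) and -2.46 at 48 h (adjusted p 5.51e-07).

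Under DEHP, Apoa4 was at 9025, 10791 and 8251 at 4 h, 2672, 2857 and 4313 at 24 h, 2182, 2207, 1812, 1780 and 1879 at 48 h, and 1603, 1406, 2066, 2591 and 1945 at 168 h. The DEHP vehicle livers had 8660, 7306, 10154, 7454 and 10514 at 48 h and 10754, 8473, 11760, 9278 and 9322 at 168 h. At 24, 48 and 168 h no treated liver reached the lowest vehicle liver, and at 4 h the treated livers lay inside the vehicle range. The log2 difference was 0.00 at 4 h, -1.53 at 24 h (SE 0.16, adjusted p 9.05e-08), -2.15 at 48 h (SE 0.16, adjusted p 1.4e-10) and -2.39 at 168 h (SE 0.16, adjusted p 1.32e-10). The means at 168 h were 1922 ± 457 in treated and 9917 ± 1318 in vehicle livers (SD, n = 5 each), 5.24-fold lower. Apoa4 was thus the single member, of 16 tested, that passed at 168 h of DEHP.

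Under VPA, Apoa4 was at 8810, 4326 and 8391 at 4 h, 3450, 3914 and 5461 at 24 h, 3054, 1574, 2602 and 2280 at 48 h, and 11175, 12902, 8618 and 12116 at 168 h. The VPA vehicle livers had 9323, 10590, 8070, 7419 and 7272 at 48 h and 7637, 12598, 6284, 7724 and 12262 at 168 h. Treated and vehicle livers did not overlap at 24 and 48 h and overlapped at 4 and 168 h. The log2 difference was -1.05 at 24 h (SE 0.23, adjusted p 0.00112 in limma), -1.87 at 48 h (SE 0.24, adjusted p 1.25e-06), or 3.66-fold lower, and 0.31 at 168 h (SE 0.24, adjusted p 0.876).

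Ordered by group mean, Apoa4 in the clofibrate set was lowest in 48 h treated livers (2558), then in 24 h treated livers (5740), and the ranges of neighbouring groups overlapped throughout. Of the DEHP groups the 168 h (1922) and 48 h (1972) treated livers were lowest and overlapped each other, and both lay clear below the 24 h treated livers (3281), which lay clear below the vehicle groups. Of the VPA groups the 48 h treated livers (2377) lay clear below the 24 h treated ones (4275), and the 4 h, vehicle and 168 h groups overlapped in a chain above. Within scan days that held both arms the 48 h difference of Apoa4 was -3.02 to -2.38 under clofibrate, -2.37 to -1.90 under DEHP and -1.998 to -1.67 under VPA, and -2.49 to -2.22 at 168 h of DEHP, over 2 days each. At 24 h the days gave -2.18 to -1.36 under clofibrate, -1.72 to -1.37 under DEHP and -1.28 to -1.11 under VPA.

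**Figure D2:**
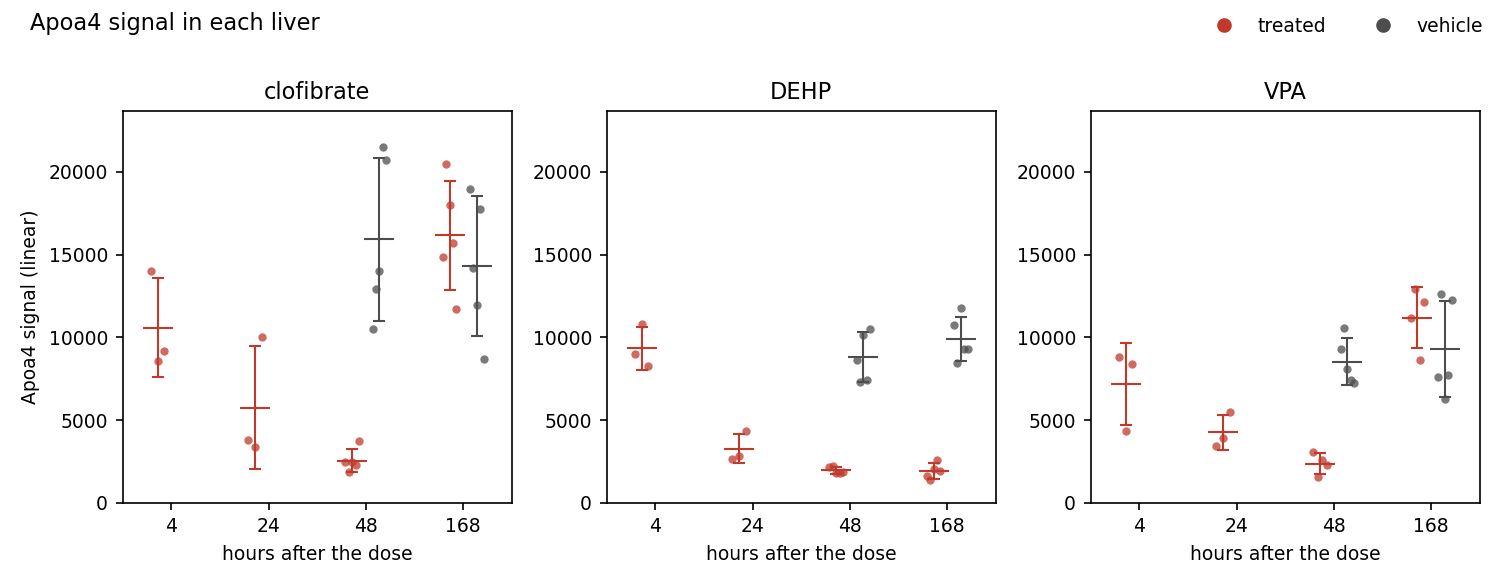
Apoa4 signal (linear scale) in each liver, with treated livers left of vehicle livers at each time after the dose and 1 panel per compound; points are arrays and bars are mean ± SD. At 48 h the treated means are 2558, 1972 and 2377 under clofibrate, DEHP and VPA, and at 168 h the DEHP-treated mean of 1922 stays below its vehicle mean of 9917.

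The return of Apoa4 between 48 and 168 h was tested as the response at 168 h minus the response at 48 h. It was 2.83 under clofibrate (SE 0.40, adjusted p 3.73e-05 in limma) and 2.18 under VPA (SE 0.34, adjusted p 4.54e-05). Under DEHP it was -0.24, with a 95% interval of -0.69 to 0.22 (adjusted p 0.527). Treated livers of DEHP also differed between 4 and 24 h, with a log2 difference of -1.54 (adjusted p 7.63e-06), and between 24 and 48 h, with -0.71 (adjusted p 0.0262). The second of these calls was lost without any 1 of 5 arrays (treated 48 h replicates 3, 4 and 5, treated 24 h replicates 2 and 3), with an adjusted p of up to 0.156.

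Apoa1, the main high-density lipoprotein protein, fell under clofibrate and DEHP and by less under VPA. In clofibrate-treated livers it was at 67570, 54486 and 69155 at 4 h, 34532, 36941 and 39870 at 24 h, 31692, 29307, 21836, 29788 and 24166 at 48 h and 41740, 54439, 61774, 58013 and 54838 at 168 h. Clofibrate vehicle livers had 42037, 38852, 77522, 84750 and 51568 at 48 h and 53032, 59997, 63050, 65061 and 47994 at 168 h. Arms did not overlap at 48 h, and the vehicle livers spread widely. The log2 difference was -1.05 at 48 h (SE 0.18, adjusted p 0.000195 in limma) and -0.62 at 24 h (SE 0.19, adjusted p 0.0303). The 24 h call was lost without any 1 of its 3 treated arrays (adjusted p up to 0.129) and without the arrays given to 1 decimal (-0.59, adjusted p 0.0723). At 48 h the value without those arrays was -0.85 (adjusted p 0.00633), and within scan days it was -0.96 to -0.86.

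In DEHP-treated livers Apoa1 was at 39037, 44628 and 36068 at 4 h, 43587, 28927 and 30995 at 24 h, 25710, 20003, 26181, 17447 and 21516 at 48 h and 41731, 35551, 50692, 55311 and 57294 at 168 h. DEHP vehicle livers had 50240, 47527, 55199, 53372 and 40941 at 48 h and 58250, 51147, 54049, 48973 and 58748 at 168 h. The 48 h arms were far apart and the 168 h arms overlapped. The differences were -0.60 at 24 h (SE 0.14, adjusted p 0.0018), -1.17 at 48 h (SE 0.14, adjusted p 3.29e-07) and -0.19 at 168 h (adjusted p 0.586), with -1.43 to -1.17 within scan days at 48 h. The 168 h response was above the 48 h response by 0.95 under clofibrate (adjusted p 0.0252) and 0.97 under DEHP (adjusted p 0.0014). The clofibrate value lost its call without any 1 of 5 arrays, among them treated 168 h replicate 3 and vehicle 48 h replicates 3 and 4, with an adjusted p of up to 0.0573. Apoa1 in DEHP-treated livers also differed between 24 and 48 h (-0.63, adjusted p 0.0238), a call lost without treated 24 h replicate 1 or treated 48 h replicate 4 (adjusted p up to 0.172).

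Under VPA Apoa1 was at 30236, 32934 and 29508 at 4 h, 26585, 28796 and 34170 at 24 h, 21798, 34257, 23942 and 29085 at 48 h and 29394, 36512, 28345 and 33186 at 168 h. VPA vehicle livers had 32490, 35824, 38539, 45660 and 29944 at 48 h and 43661, 39938, 46704, 38775 and 37810 at 168 h. Arms overlapped at 48 h, and at 168 h they did not, though that difference of -0.38 did not pass (adjusted p 0.42 in limma). The differences were -0.38 at 24 h (SE 0.13, adjusted p 0.0232) and -0.43 at 48 h (SE 0.13, adjusted p 0.011), and within scan days the 48 h value was -0.44 to -0.04. The first call was lost without treated replicate 1 or 2 (adjusted p up to 0.141) and the second without treated replicate 1 (0.0625). With quantile normalisation both calls were lost, at -0.03 (adjusted p 0.863) and -0.21 (adjusted p 0.149). The other Apoa1 probe set, M00001_i_at, fell by 1.72 at 48 h of clofibrate (adjusted p 0.000409) and by 1.28 at 48 h of DEHP (adjusted p 3.04e-05), and at 48 h of VPA its difference was -0.34 (adjusted p 0.143). At 24 h it was -1.01 under clofibrate (adjusted p 0.0436), a call lost in 15 of the fits that left out 1 array (adjusted p up to 0.194), and -0.89 under DEHP (adjusted p 0.00236).

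Apoa2, the second high-density lipoprotein protein, fell strongly under VPA alone of the 3 compounds at 48 h. VPA-treated livers had 34414, 27088 and 36682 at 4 h, 21101, 20183 and 14375 at 24 h, 10905, 5202, 10848 and 9547 at 48 h, and 36280, 37077, 35608 and 36875 at 168 h. VPA vehicle livers had 42850, 48580, 30628, 48203 and 35504 at 48 h and 50354, 40339, 49988, 47095 and 41864 at 168 h. The highest treated liver at 48 h was far below the lowest vehicle liver, and at 168 h the arms still did not overlap. The 48 h means were 9125 ± 2690 in treated livers (SD, n = 4) and 41153 ± 7912 in vehicle livers (SD, n = 5), a log2 difference of -2.21 (SE 0.18, adjusted p 1.86e-09 in limma), or 4.63-fold lower. It was -1.23 at 24 h (SE 0.18, adjusted p 1.29e-05) and -0.33 at 168 h (SE 0.18, adjusted p 0.728). Within scan days it was -2.23 to -1.89 at 48 h and -1.04 to -1.003 at 24 h.

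Apoa2 also differed step by step among VPA-treated livers. It was lower at 24 than at 4 h by a log2 difference of -0.83 (adjusted p 0.0172 in limma, with 4.92% of all tested called lower) and lower at 48 than at 24 h by -1.06 (adjusted p 0.00503, with 2.08% of all called lower). It was the single member called in either step. The first call was lost without treated 4 h replicate 1 or 3 or treated 24 h replicate 3 (adjusted p up to 0.106), and the second without treated 24 h replicate 1 (0.0553). The 168 h response exceeded the 48 h response by 1.88 (SE 0.26, adjusted p 9.55e-06). Ordered by mean, the VPA groups ran from 48 h treated (9125) to 24 h treated (18553), each clear of the next, and the 4 h, 168 h and vehicle groups above them overlapped.

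**Figure D3:**
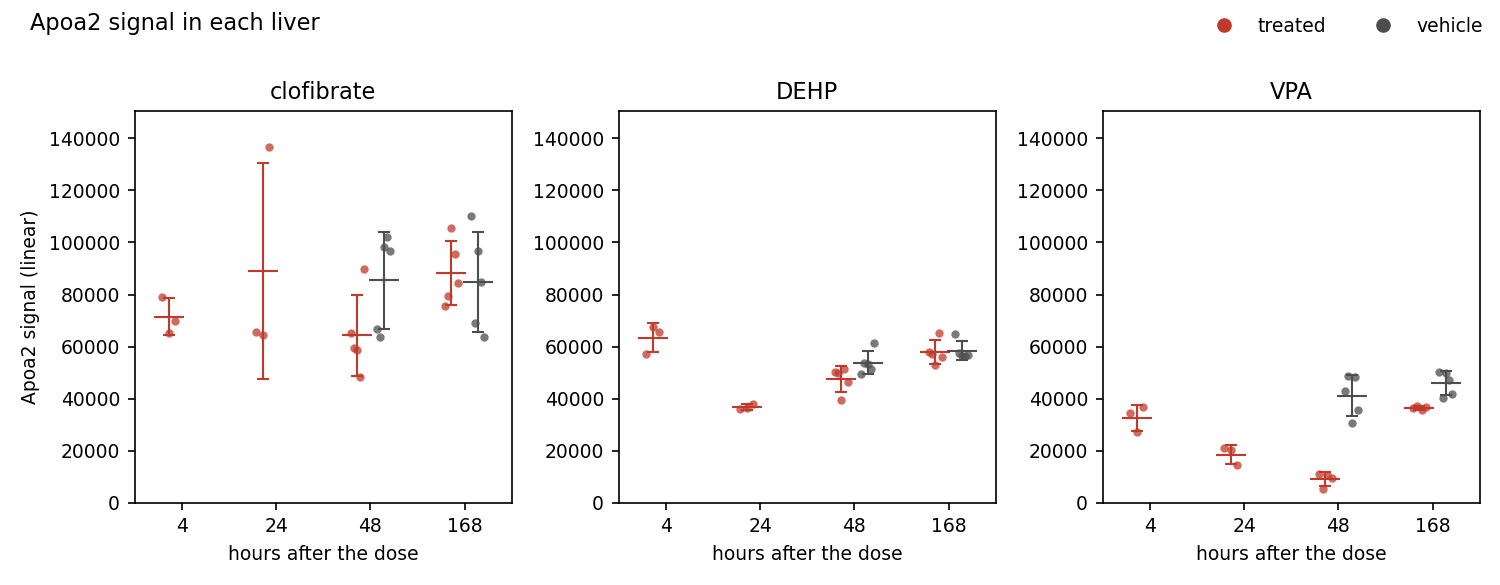
Apoa2 signal (linear scale) in each liver, with treated livers left of vehicle livers at each time after the dose and 1 panel per compound; points are arrays and bars are mean ± SD. Under VPA the treated means are 18553 at 24 h and 9125 at 48 h, against a vehicle mean of 41153 at 48 h, and under DEHP the 24 h treated mean is 36847.

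Under DEHP Apoa2 passed at 24 h alone of the 4 times. Treated livers had 57197, 67706 and 65505 at 4 h, 36172, 36366 and 38003 at 24 h, 50253, 50050, 39396, 51588 and 46414 at 48 h and 57832, 56986, 52769, 65331 and 55956 at 168 h. Vehicle livers had 49623, 53574, 53431, 51436 and 61202 at 48 h and 64802, 57514, 56286, 56332 and 56826 at 168 h. The 3 livers at 24 h lay close together below every vehicle liver. The difference was -0.60 at 24 h (SE 0.08, adjusted p 4.27e-06 in limma), -0.18 at 48 h (adjusted p 0.0804) and -0.02 at 168 h. Among treated livers Apoa2 was lower at 24 than at 4 h (-0.78, adjusted p 7.92e-06) and higher at 48 than at 24 h (0.36, adjusted p 0.0265), a call lost without any 1 of 5 treated arrays (adjusted p up to 0.109). Under clofibrate Apoa2 did not pass, with -0.41 at 48 h (SE 0.21, adjusted p 0.172), where treated livers had 65069, 59599, 58642, 48279 and 89934 and vehicle livers 66880, 63708, 98342, 102196 and 96621.

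Apob gave no call with its brightest probe set, M27440_at. At 48 h its mean was 20680 ± 11977 in treated and 17181 ± 8432 in vehicle livers of clofibrate (SD, n = 5 each), 26914 ± 4021 and 33750 ± 6794 for treated and vehicle livers of DEHP (n = 5 each), and 21191 ± 7896 (n = 4) and 20858 ± 6738 (n = 5) for treated and vehicle livers of VPA. The log2 differences were 0.18, -0.31 and -0.00, with adjusted p from 0.112 to 0.992 in limma, and treated and vehicle ranges overlapped. A second probe set, rc_AA997806_at, fell by 0.69 at 24 h (adjusted p 0.018) and 0.61 at 48 h (adjusted p 0.0232) of clofibrate, and by 0.53 at 24 h of VPA (adjusted p 0.00509). The 24 h clofibrate call was lost without treated 24 h replicate 1 or 2 (adjusted p up to 0.0814), and the 48 h call without any 1 of treated replicates 1, 2 and 4 and vehicle replicate 5 (up to 0.0897). U53873cds_at was called in no comparison with vehicle, and the dim probe sets M14952mRNA_at and M21842_at were tested under DEHP and clofibrate alone, with no call.

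Apoc3, the inhibitor of triglyceride clearance, fell under all 3 compounds at 48 h by at least 1 of its 3 probe sets. Its brightest, J02596cds_at, had 39257, 48941, 43510 and 57107 in VPA-treated livers at 48 h, against 77109, 74066, 71008, 92514 and 74060 in vehicle livers. DEHP-treated livers at 48 h had 78300, 67851, 82912, 70832 and 75658, against 100148, 105976, 108266, 115098 and 107715 in vehicle livers. Neither pair of arms overlapped. Clofibrate-treated livers at 48 h had 99560, 100022, 107607, 85906 and 151812, against 115789, 118810, 156325, 190751 and 154019 in vehicle livers, and those arms overlapped through treated replicate 5.

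The log2 difference of J02596cds_at at 48 h was -0.73 under VPA (SE 0.11, adjusted p 2.03e-05 in limma), -0.52 under DEHP (SE 0.11, adjusted p 0.000826) and -0.44 under clofibrate (SE 0.19, adjusted p 0.106). At 24 h it was -0.67 under VPA (adjusted p 6.18e-05), -0.27 under DEHP (adjusted p 0.0819) and -0.11 under clofibrate (adjusted p 0.788). Apoc3 was also the one gene whose shown probe set passed at 4 h of VPA, at -0.35 (adjusted p 0.0276), a call lost without treated 4 h replicate 1 or 2 (adjusted p up to 0.226), with scan day as a block (-0.30, adjusted p 0.0695) and with quantile normalisation (-0.03, adjusted p 0.793). The other 2 probe sets fell at 48 h of clofibrate, J02596cds_g_at by 0.88 (adjusted p 0.00266) and rc_AI169758_at by 1.41 (adjusted p 0.00138). They also fell at 48 h of DEHP, by 0.85 and 0.77, and of VPA, by 0.79 and 0.54. The 3 probe sets therefore ran the same way but differed in size, most under clofibrate.

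Apoc1 passed under VPA alone. Its signal was 38199, 44177 and 42059 at 24 h and 33702, 45956, 34713 and 46567 at 48 h in VPA-treated livers, against 56337, 63495, 51387, 67447 and 59979 in vehicle livers at 48 h. The arms did not overlap. Apoc1 differed by -0.56 on the log2 scale at 24 h (SE 0.12, adjusted p 0.000785 in limma) and -0.58 at 48 h (SE 0.12, adjusted p 0.000542). Under DEHP it was -0.36 at 24 h (adjusted p 0.0518) and -0.30 at 48 h (adjusted p 0.0942), which passed with scan day as a block at -0.39 (adjusted p 0.00257) and -0.31 (adjusted p 0.0226). Under clofibrate it was -0.26 at 24 h (adjusted p 0.159) and -0.25 at 48 h (adjusted p 0.126). Without the arrays given to 1 decimal the 24 h clofibrate difference was -0.40 (adjusted p 0.0144).

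Apoe, the receptor ligand, likewise passed under VPA with its shown probe set. VPA-treated livers had 47767, 49401 and 59600 at 24 h and 41095, 53077, 41938 and 56865 at 48 h, against 72158, 74629, 61413, 85835 and 82538 in vehicle livers at 48 h. The arms did not overlap at 48 h. Apoe differed by -0.61 on the log2 scale at 24 h (SE 0.13, adjusted p 0.00104 in limma) and -0.65 at 48 h (SE 0.14, adjusted p 0.00052). It was -0.12 at 48 h of DEHP (adjusted p 0.48) and -0.31 at 48 h of clofibrate (adjusted p 0.333). The second probe set, S76779_s_at, gave -0.60 and -0.63 at 24 and 48 h of VPA. It also passed at 4 h of VPA (-0.35, adjusted p 0.0387) and 24 h of DEHP (-0.27, adjusted p 0.0322), calls lost without treated replicate 1 or 2 of either group (adjusted p up to 0.314 and 0.175).

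Bright probe sets other than the members also ran lower under VPA, beside the falls of Apoc1, Apoc3 and Apoe there. Of 236 other probe sets whose signal averaged 20000 or more, a threshold chosen after seeing the data, 140 were called lower and 18 higher at 24 h of VPA, with a median log2 difference of -0.46, and 125 and 21 at 48 h, with a median of -0.41. Under DEHP those medians were -0.23 and -0.11, and under clofibrate -0.17 and -0.21. DEHP had 97 of them called lower and 36 higher at 24 h, and 81 and 49 at 48 h. Clofibrate had 32 lower and 18 higher at 24 h, and 53 and 20 at 48 h. When the arrays were quantile-normalised, the 24 h VPA calls of the shown probe sets of Apoe (0.0055, adjusted p 0.946), Apoc1 (-0.01, adjusted p 0.896) and Apoc3 (-0.01, adjusted p 0.899) were lost. At 48 h of VPA the calls of Apoc1 (-0.14, adjusted p 0.111) and Apoe (-0.10, adjusted p 0.143) were lost too, while that of Apoc3 held (-0.17, adjusted p 0.0215). The other 2 Apoc3 probe sets kept their 24 h calls. The summed signal of 7 hepatocyte markers in VPA livers at 48 h was 171900 to 229497 in treated and 253002 to 320159 in vehicle livers. Of the 7 markers 4 were called lower, beside 18.4% of all tested probe sets. The part of these markers in these falls was not tested.

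Lipc, hepatic lipase, fell most under DEHP. DEHP-treated livers had 10160, 10824 and 10876 at 4 h, 5264, 5386 and 5178 at 24 h, 4525, 4437, 5095, 5802 and 4798 at 48 h and 9843, 9470, 8901, 10642 and 10310 at 168 h. DEHP vehicle livers had 9475, 10049, 11026, 10595 and 12254 at 48 h and 10325, 11674, 10469, 12393 and 10869 at 168 h. Every treated liver at 24 and 48 h lay far below every vehicle liver, while the 168 h arms overlapped. The log2 difference was -1.04 at 24 h (SE 0.09, adjusted p 3.27e-09 in limma), -1.12 at 48 h (SE 0.08, adjusted p 2.49e-10) and -0.18 at 168 h (adjusted p 0.343). Within scan days it was -1.07 to -1.01 at 24 h and -1.18 to -1.02 at 48 h. Among treated livers it was lower at 24 than at 4 h (-1.01, adjusted p 8.41e-07), and the 168 h response exceeded that at 48 h by 0.94 (adjusted p 1.24e-05).

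Lipc in VPA-treated livers was at 9960, 8056 and 9654 at 24 h and 6157, 6315, 8230 and 7339 at 48 h, against 11898, 15116, 9352, 10339 and 10248 in vehicle livers at 48 h. The 48 h arms did not overlap. The difference was -0.69 at 48 h (SE 0.13, adjusted p 0.000195 in limma) and -0.37 at 24 h (SE 0.13, adjusted p 0.0272), the second lost without treated replicate 2 or 3 (adjusted p up to 0.176). In clofibrate-treated livers at 48 h it was at 4460, 5895, 4962, 7043 and 2842, against 12016, 9434, 9186, 4801 and 7476 in vehicle livers, and these arms overlapped. That difference was -0.77 (SE 0.23, adjusted p 0.0191). It was lost without treated replicate 5 or vehicle replicate 1 (adjusted p up to 0.0534), was -0.88 without the arrays given to 1 decimal (adjusted p 0.00121), and ran from -1.25 to -0.06 over 2 scan days.

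**Figure D4:**
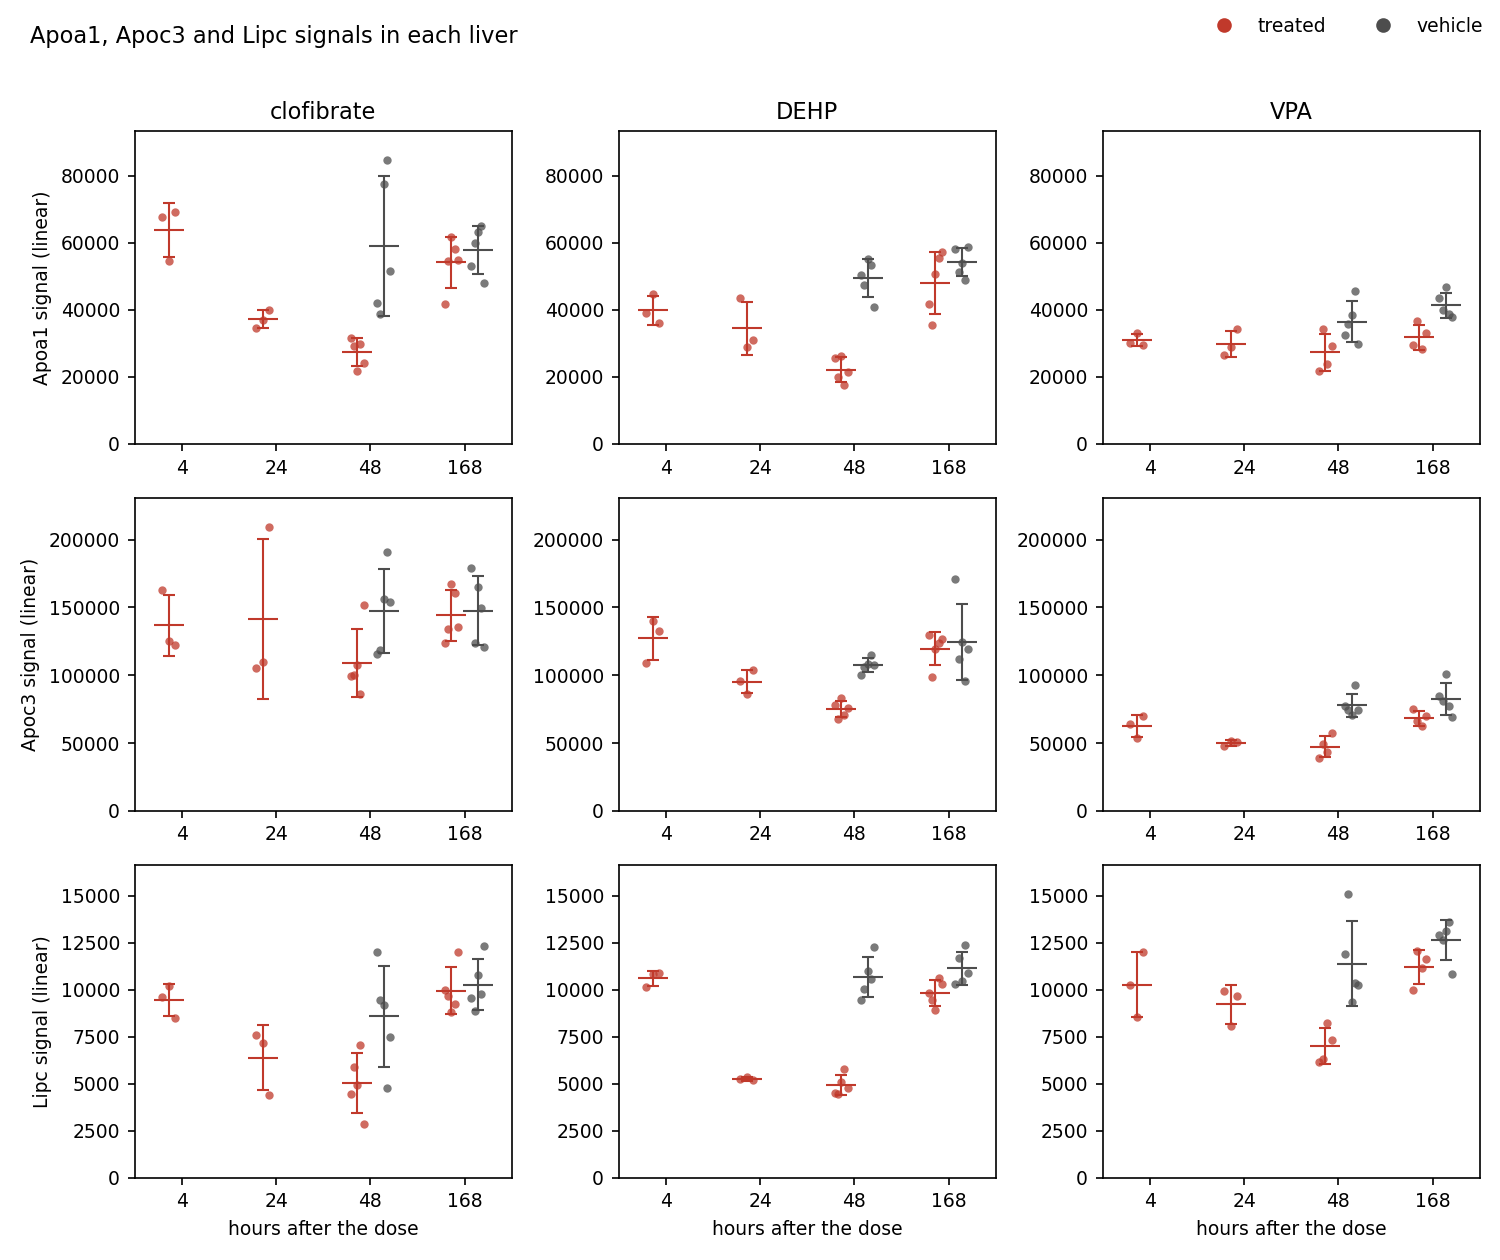
Signals (linear scale) of Apoa1, Apoc3 and Lipc (rows) in each liver, with treated livers left of vehicle livers at each time after the dose and 1 column of panels per compound; points are arrays and bars are mean ± SD. Lipc at 24 h of DEHP lies at 5178 to 5386 in treated livers, below the lowest vehicle liver at 9475, and the Apoa1 vehicle livers of clofibrate at 48 h spread from 38852 to 84750.

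Lpl, lipoprotein lipase, had signals near the group mean of 500 required for testing and passed under DEHP alone. DEHP-treated livers had 440, 390 and 616 at 24 h and 314, 440, 543, 395 and 605 at 48 h, against 674, 630, 713, 657 and 615 in vehicle livers at 48 h. The arms at 48 h did not overlap, by a gap of few units. The log2 difference was -0.52 at 24 h (SE 0.17, adjusted p 0.0232 in limma), lost without treated replicate 1 or 2 (adjusted p up to 0.186). It was -0.55 at 48 h (SE 0.17, adjusted p 0.0127), lost without treated replicate 1 (adjusted p 0.0528). With scan day as a block the 48 h value was -0.42 (adjusted p 0.0879), and within scan days it was -0.63 to -0.14. Quantile normalisation gave -0.39 (adjusted p 0.0639). Clofibrate gave -0.76 at 24 h (adjusted p 0.111), which was -0.997 (adjusted p 0.0167) without the arrays given to 1 decimal, and VPA gave -0.43 at 48 h (adjusted p 0.123). A dimmer Lpl probe set, L03294_at, was tested under VPA alone of the compounds and called at no time. At 48 h of VPA it ran from -0.06 to 0.86 within scan days, against -0.42 to -0.41 for the shown probe set. Fibroblast and macrophage markers moved beside it under DEHP: the stellate and matrix list had 5 of 6 tested genes lower at 48 h, with summed signals of 4400 to 6880 in treated and 11603 to 14238 in vehicle livers. Of the 9 genes summed, 6 averaged under 500 in these treated livers and 3 in these vehicle livers. Some tested genes thus passed the filter only through groups where they were higher, which favours a fall in that count. The macrophage list had 3 of 4 tested genes lower, with sums of 6952 to 9373 in treated and 9405 to 15007 in vehicle livers. Of all tested probe sets 21.1% were called lower at 48 h of DEHP. The part of these lists in the Lpl difference was not tested.

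Those lists also moved under the other compounds. At 48 h the stellate and matrix sums were 3752 to 5539 in treated and 7650 to 9515 in vehicle livers of clofibrate, and 5867 to 7567 in treated and 10690 to 14052 in vehicle livers of VPA. The macrophage sums were 6950 to 9117 in treated and 11354 to 14321 in vehicle livers of clofibrate, and 6449 to 8979 in treated and 8442 to 12465 in vehicle livers of VPA. Hepatocyte markers had 3 of 7 lower at 48 h of clofibrate, with sums of 284807 to 403031 in treated and 396303 to 516975 in vehicle livers, and 3 of 7 lower at 48 h of DEHP, with 279979 to 365004 in treated and 348865 to 418458 in vehicle livers. Over all tested probe sets, 12.7% were called lower at 48 h of clofibrate and 21.1% at 48 h of DEHP. At 168 h of DEHP, where Apoa4 was still low, the hepatocyte sums were 352255 to 449958 in treated and 358468 to 533076 in vehicle livers, and the sums of the 5 gut markers measured were 1670 to 2500 in treated and 1794 to 2370 in vehicle livers.

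Over the time contrasts the members ran as follows. Clofibrate-treated livers gave no member call between 4 and 24 h (4 members at an unadjusted p under 0.05 in limma, with 5.12% of all tested called in either direction) or between 24 and 48 h (4 at an unadjusted p under 0.05, with 0.277% called). DEHP-treated livers had 8 members lower at 24 than at 4 h (10.9% of all called lower), and between 24 and 48 h Apoa4 and Apoa1 were lower (1.96% of all) and Apoa2 higher (1.2% of all). Of the 8, Apoc1 X15512_at, Apoc3 J02596cds_at and Apoe S76779_s_at kept their calls in 8, 5 and 9 of 12 alternative fits. Their smallest differences there were -0.14, -0.05 and -0.0056. The rest of the 8 kept their calls in all 12. The 168 h response was above the 48 h response for 4 members under clofibrate (5.89% of all called in either direction), 6 under DEHP (13.6%) and 6 under VPA (23.5%), all upward. For Apoc3 the DEHP (0.48, adjusted p 0.0435) and VPA (0.47, adjusted p 0.0391) values lost their calls in 16 and 9 fits that left out 1 array, and for Lipc the VPA value (0.52, adjusted p 0.0471) did so in 14. Vehicle livers at 168 h did not differ from those at 48 h for any member in limma (0, 1 and 0 members of the clofibrate, DEHP and VPA sets at an unadjusted p under 0.05), in fits where 0% of all probe sets were called (114, 179 and 186 at an unadjusted p under 0.05).

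The compounds were compared by the difference of their responses in 1 fit of all 76 individual arrays. Their doses and vehicles differed, so these differences are not at matched doses, and 12 contrasts were made, 3 pairs of compounds at 4 times. Of 18 member probe sets tested, 9 values passed in all 12, and they fell on Apoa4, Apoa2, Apoa1 and 1 probe set each of Apob and Apoc3. Apoa2 was lower under VPA than under DEHP at 48 h by a log2 difference of responses of -2.03 (95% interval -2.51 to -1.55, adjusted p 4.63e-09 in limma). It was lower under VPA than under clofibrate by -1.80 at 48 h (-2.28 to -1.31, adjusted p 1.26e-07) and by -1.23 at 24 h (-1.72 to -0.75, adjusted p 0.000369). Apoa4 at 168 h was higher under VPA than under DEHP by 2.70 (2.02 to 3.38, adjusted p 4.01e-08) and higher under clofibrate than under DEHP by 2.59 (1.93 to 3.26, adjusted p 5.32e-08). These 5 differences separate Apoa2 at 48 h of VPA and Apoa4 at 168 h of DEHP from both other compounds. At 24 h Apoa2 under VPA was separated from clofibrate alone, as VPA minus DEHP gave no member call then.

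Apoa1 at 48 h was higher under VPA than under DEHP by 0.74 (0.30 to 1.18, adjusted p 0.0257 in limma), a call lost without any 1 of 4 arrays (VPA vehicle replicate 5, VPA treated replicates 2 and 4, DEHP treated replicate 4), with an adjusted p of up to 0.0986. Its other probe set, M00001_i_at, was higher under VPA than under clofibrate at 48 h by 1.39 (adjusted p 0.00714), as were Apob M21842_at by 1.53 (adjusted p 0.00557) and Apoc3 rc_AI169758_at by 0.87 (adjusted p 0.0312). The Apob probe set was at the floor on 24 of 76 arrays. It averaged 500 in a clofibrate group but in no VPA or DEHP group, so its value is not read as a compound difference. The Apoc3 call was lost in 8 fits that left out 1 array (adjusted p up to 0.1). For Apoa4 at 48 h no difference between compounds passed: it was 0.28 for VPA minus DEHP (-0.40 to 0.96), -0.47 for clofibrate minus DEHP (-1.13 to 0.19) and 0.75 for VPA minus clofibrate (0.07 to 1.43, adjusted p 0.155). For Lipc at 48 h the intervals were -0.03 to 0.89 for VPA minus DEHP, -0.10 to 0.80 for clofibrate minus DEHP and -0.38 to 0.54 for VPA minus clofibrate, and none passed. The genes that passed against vehicle under 1 compound alone were not shown to differ between compounds: at 48 h VPA minus DEHP was -0.53 for Apoe (-1.01 to -0.05, adjusted p 0.193), -0.28 for Apoc1 (-0.64 to 0.08) and 0.12 for Lpl (-0.54 to 0.79).

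Over all tested probe sets the shares called in these contrasts were 4.29, 4.62, 7.97 and 0.777% for VPA minus DEHP at 4, 24, 48 and 168 h. They were 0.266, 2.2, 2.07 and 0.777% for clofibrate minus DEHP, and 4.33, 8.86, 11.3 and 0% for VPA minus clofibrate. Member calls numbered 2 of 18 for VPA minus DEHP at 48 h and 1 at 168 h, 1 for clofibrate minus DEHP at 168 h, and 1 and 4 for VPA minus clofibrate at 24 and 48 h. The 4 include the dim Apob probe set M21842_at. The remaining contrasts had none in limma. At an unadjusted p under 0.05 they had 7 members for VPA minus DEHP at 4 h and 2 at 24 h, 1, 2 and 2 for clofibrate minus DEHP at 4, 24 and 48 h, and 1 and 0 for VPA minus clofibrate at 4 and 168 h (154 probe sets of all in the last).

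**Figure D5:**
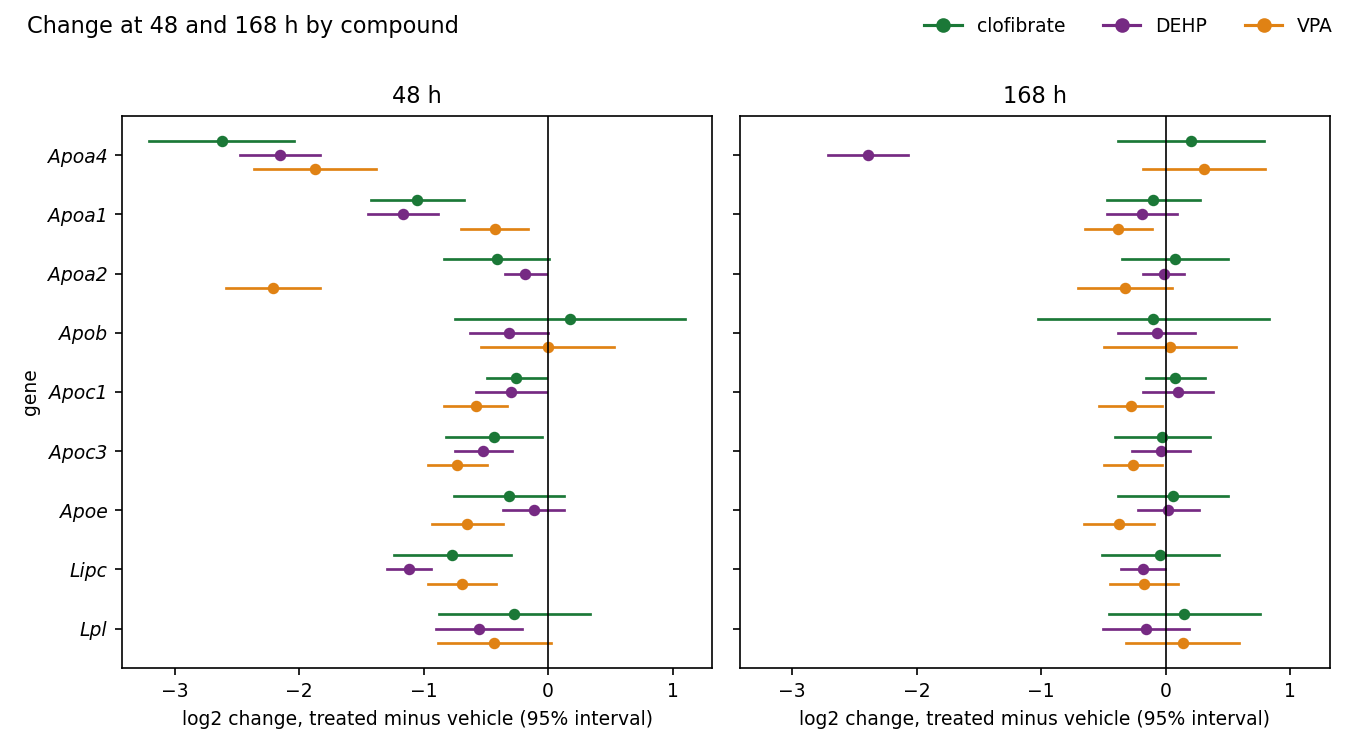
Log2 difference between treated and vehicle livers with its 95% interval for each of the 9 genes at 48 h (left) and 168 h (right), coloured by compound. At 48 h Apoa2 under VPA (-2.21) lies apart from its DEHP (-0.18) and clofibrate (-0.41) values, and at 168 h Apoa4 under DEHP (-2.39) lies apart from clofibrate (0.20) and VPA (0.31).

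Other genes of lipoprotein metabolism were read from lists chosen with earlier results of these data known. Beside the list counts here and below stand those of all tested probe sets at 48 h. Under clofibrate 459 of 3616 were called lower and 263 higher. DEHP had 862 lower and 523 higher of 4092, and VPA 784 lower and 911 higher of 4269. Of the other apolipoprotein and high-density lipoprotein proteins, 5 of 12 listed genes were tested. At 48 h clofibrate lowered 4 of the 5, DEHP 4 with 1 higher, and VPA 2 with 1 higher. Pon1, an antioxidant enzyme carried on high-density lipoprotein, fell under all 3, most under VPA, with means of 28009 in treated and 49686 in vehicle livers (-0.82, adjusted p 3.82e-06 in limma). Apoh also fell at 48 h of all 3, by 0.61, 0.61 and 0.77 under clofibrate, DEHP and VPA. Apoc4, the chromosome 1 neighbour of Apoc1, fell by 0.98 at 48 h of clofibrate and 0.78 at 48 h of DEHP. Apom, a high-density lipoprotein protein that carries sphingosine-1-phosphate, was the only gene of this list called at 168 h of DEHP, with means of 13031 in treated and 19326 in vehicle livers (-0.56, adjusted p 0.00789). Clu rose by 0.34 at 48 h of VPA and by 0.32 at 48 h of DEHP. Lcat, which esterifies cholesterol on high-density lipoprotein, fell at 48 h of each compound, by 1.21 under VPA, 0.88 under clofibrate and 0.65 under DEHP.

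Of 12 listed genes of particle assembly and triglyceride synthesis, 5 were tested. At 48 h clofibrate raised 1 and lowered 2, DEHP raised 1, and VPA raised 1 and lowered 3. Dgat1, which makes triglyceride, rose at 24 and 48 h of all 3 compounds, with means of 3789 in treated and 1753 in vehicle livers at 48 h of VPA (1.12, adjusted p 2.29e-07 in limma). P4hb, a subunit of the microsomal triglyceride transfer complex, fell by 0.83 at 48 h of clofibrate and by 0.29 at 48 h of VPA, and Apobec1, the editing enzyme of Apob messenger RNA, fell by 1.19 at 4 h of VPA at signals of 203 in treated and 530 in vehicle livers. Of 16 listed receptor and uptake genes, 4 were tested under clofibrate and 5 under the others. At 48 h clofibrate lowered 1, DEHP raised 1 and lowered 2, and VPA raised 2. Cd36, a fatty acid transporter, rose by 2.28 at 48 h and 1.25 at 168 h of DEHP and by 1.38 at 48 h of VPA. Sdc1, a heparan sulfate proteoglycan that takes up remnants in mice, fell by 1.08 at 48 h of clofibrate and by 0.76 at 48 h of DEHP. Among the other lipases, Mgll, monoglyceride lipase, rose by 1.79 at 48 h of clofibrate, 1.08 at 48 h of DEHP and 1.63 at 48 h of VPA, and by 1.34 at 168 h of DEHP.

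Of 29 listed transcription regulators of lipoprotein genes, 20 were tested. At 48 h clofibrate lowered 1 and raised 1, DEHP lowered 4, and VPA lowered 7 and raised 2. Of all probe sets tested, 12.7, 21.1 and 18.4% were called lower under clofibrate, DEHP and VPA. Only the 7 lowered under VPA exceeded the share of all tested called in the same direction. Ppard, a fatty acid-activated receptor, fell by 0.92, 0.69 and 0.82 at 48 h of clofibrate, DEHP and VPA. Nr1d1 (Rev-erb alpha), a repressor that acts on Apoc3 in rodents, rose by 1.08 at 48 h of clofibrate (adjusted p 0.000802 in limma) and by 1.09 at 24 h of DEHP (adjusted p 0.000282). Srebf1, the regulator of fatty acid synthesis, fell by 2.21 at 48 h of VPA, with means of 647 in treated and 3001 in vehicle livers, and Cebpa fell by 1.29.

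Fatty acid oxidation genes rose at the times the apolipoproteins fell and also at 4 h. Of 12 tested, 8, 11, 10 and 0 were higher at 4, 24, 48 and 168 h of clofibrate, 6, 9, 10 and 7 of DEHP, and 5, 9, 10 and 0 of VPA, where Fabp1 was lower at 4, 24 and 48 h. Of all 3616 probe sets tested under clofibrate, 88, 208, 263 and 0 were called higher at these times. The numbers were 63, 617, 523 and 87 of 4092 under DEHP, and 616, 891, 911 and 0 of 4269 under VPA. The counts of 0 at 168 h lie in limma fits with no call at all. At 168 h of DEHP, the late group in which Apoa4 stayed low, Ehhadh, a peroxisomal oxidation enzyme, had means of 23051 in treated and 3869 in vehicle livers (2.51, adjusted p 6.36e-08 in limma), and Cyp4a1 39921 in treated and 4555 in vehicle livers (3.14). Apoa1, Apoc3 and Lipc, which did not pass at that time, had differences of -0.19, -0.04 and -0.18.

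Across the 18 group means, each gene was compared with 2704 other genes after the mean of its compound was subtracted. This likeness is a description over groups that share vehicle animals and array sets, and it has no p-value. Apoa4 was most like Spp2 (Pearson r 0.93), Syk (0.92) and Syn1 (0.92), and Apoa1 most like Cyp1a2 (0.93), Aqp9 (0.93) and Serpina3l (0.92). Apoa2 was most like C9 (0.95), Cyp51 (0.95) and Cyp2c11 (0.93). Within the clofibrate groups alone these were 0.567, 0.564 and 0.545, against 0.884 to 0.995 within the DEHP and VPA groups. Apoe was most like Serpina1, Alb and Rup2 (0.99, 0.99 and 0.98). Apoc3 lay nearest to Ambp (0.98), Apoc1 to Hpx (0.96), Lipc to Cyp1a2 (0.96), Lpl to Rhd (0.93) and Apob to F9 (0.88). Among the members themselves the closest pairs were Apoc3 with Apoe (0.93), Apoc1 with Apoc3 (0.92) and Apoc1 with Apoe (0.91). Apoa4 gave 0.73 with its neighbour gene Apoc3 and 0.74 with Apoa1, and Apob with Apoe gave the lowest value, 0.27.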

How the data were processed

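Liver RNA of individual rats was labelled from 10 µg of total RNA and hybridised to rat genome arrays, per the labels' protocols. The deposited intensities are MAS 5.0 signals that the authors scaled globally to a target of 1500, per the labels; no other step of theirs is given in the sources used here. The members and all gene lists were chosen with earlier results of these data known. Symbols came from the platform table, promoters from RefSeq GRCr8.

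Signals were floored at 150 and log2 taken. Control probe sets and probe sets averaging under 500 in every group of a fit were left out, leaving 3616 (clofibrate, 26 arrays), 4092 (DEHP, 26), 4269 (VPA, 24) and 4503 (all 18 groups, 76 arrays). Group means were fitted with limma 3.58.1 (lmFit, eBayes with intensity trend) in R 4.3.3, with Benjamini-Hochberg adjustment over all tested probe sets per contrast. The number of arrays limits precision. Named genes were all members, up to 4 called genes of smallest adjusted p per list and comparison, and the 3 most alike genes per member; in the report some list genes were picked from these for space. Pooled arrays entered no test. Scripts were tested on simulated data. Tables and figures used Python 3.11.15, pandas 2.3.3 and matplotlib 3.10.9. Alternatives covered scaling, floor, filter, variance prior, blocks, vehicle groups, single arrays left out, the 3'/5' ratio and array weights.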

Additional observations from a re-analysis of the deposited data

Results flagged for a closer look

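A single liver stood apart from the rest of its group for 3 of the 108 gene-by-group sets of 4 or 5 arrays that were screened for outlying values, and chance marks about 1 in 20. Apoc1 in clofibrate-treated livers at 168 h had 116493 in replicate 3 and 96957 to 101636 in the other livers. Lpl in VPA-treated livers at 168 h had 431 in replicate 2 and 602 to 615 in the other livers. Apoa2 in DEHP vehicle livers at 168 h had 64802 in replicate 1 and 56286 to 57514 in the other livers.

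The response of several members differed between 48 and 168 h, as the response at 168 h minus that at 48 h, all in limma. Apoa4 differed by 2.83 under clofibrate (SE 0.40) and 2.18 under VPA (SE 0.34). Apoa1 differed by 0.95 under clofibrate and 0.97 under DEHP. Apoc3 differed by 0.48 under DEHP and 0.47 under VPA. Lipc differed by 0.94 under DEHP and 0.52 under VPA, and Apoa2 by 1.88 under VPA.

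Responses also differed between compounds given at unlike doses. Apoa1 at 48 h gave 0.74 for VPA minus DEHP, and Apoa2 gave -2.03 for VPA minus DEHP and -1.80 for VPA minus clofibrate. Apoa2 at 24 h gave -1.23 for VPA minus clofibrate. Apoa4 at 168 h gave 2.70 for VPA minus DEHP and 2.59 for clofibrate minus DEHP.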

How the results depend on the processing

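Of the 91 member values called in any comparison, 91 were still called with a floor of 50, 90 with array weights, 87 with a 3'/5' covariate, 87 without the 4 arrays of 1-decimal signals, 84 without the intensity trend, 80 with scan day as a block, 77 with only the groups compared, 74 with each array centred on its median, 73 with quantile normalisation and 72 with no filter on low signals. In 1 fit of all 18 groups 57 of 82 were. With the 168 h vehicle alone 25 of 27 early calls held, and with the 48 h vehicle alone 18 of 27. Apoa4 at 24 and 48 h of each compound and at 168 h of DEHP, and Apoa2 at 24 and 48 h of VPA, kept their calls in every alternative run for them. Quantile normalisation turned Apoe at 24 h of VPA to 0.0055 (X04979_at, adjusted p 0.946) and 0.0348 (S76779_s_at, adjusted p 0.575); the cause was not tested.

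Counts of member calls that moved by over 1.5 times were 7 (against 11) for clofibrate with median centring and 26 with array weights, 12 (against 24) for VPA with quantile normalisation, 19 (against 29) for the time differences with median centring and 17 with no filter, and 22 (against 9) for the compound differences with the 3'/5' covariate and 35 with array weights. Leaving out 1 array at a time gave 8 to 14 calls for clofibrate, 16 to 20 for DEHP, 21 to 27 for VPA, 24 to 32 for time, 7 to 12 for compounds and 0 for vehicle livers. Same-numbered animals were not shown to be paired (28 pairs of a treated and a vehicle array of the same time, r from -0.455 to 0.549, 6 over 0.1). With a replicate block the counts were 10 for clofibrate, 17 for DEHP, 23 for VPA, 23 for time and 9 for compounds, and 81 of the 91 values kept their call.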

Other observations

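The 18 pooled arrays, which entered no test, gave 342 member values. Of these 245 lay within the range of the individual livers of their group, 74 above it and 23 below it. For the 9 shown probe sets 112 of 162 lay within, and the difference of the pooled array from the individual livers' mean, on the log2 scale, ran from -0.94 to 0.78.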
